A study of Homo sapiens with 10 samples.

Results

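Protein kinase A (PKA) was followed through 8 genes of the deposited count table: the regulatory subunits PRKAR1A, PRKAR1B, PRKAR2A and PRKAR2B, the catalytic subunits PRKACA and PRKACB, and the inhibitors PKIA and PKIG. They were found by gene symbol among the 58735 rows of the table, each on 1 row, and all 8 were among the 13934 genes with enough counts to be tested. The 8 genes were chosen with measured values of the siUSP9X to siCtrl contrast in view, so their differences in that contrast are described below and carry no test of their own. The RNA came from human brain endothelial cells, a cell line by the labels, which the submitters call HCMECs. In 5 libraries the cells had received an siRNA against USP9X (siUSP9X), and in the other 5 a control siRNA (siCtrl). Both groups were transfected for 48 h and then given Wnt3a, a ligand of the Wnt pathway, for 12 h. No cells without Wnt3a were analysed here. USP9X is a deubiquitinase, an enzyme that removes ubiquitin from other proteins.

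PKA is the main receptor for cyclic AMP (cAMP) in most cells. Regulatory subunits pair up and hold catalytic subunits inactive until cAMP binds to them and the catalytic subunits are let go to phosphorylate their targets. Type I regulatory subunits (PRKAR1A and PRKAR1B) are largely found in the cytosol, while type II subunits (PRKAR2A and PRKAR2B) are mostly held at membranes and organelles by A-kinase anchoring proteins. The inhibitors of the PKI family block free catalytic subunits and carry them out of the nucleus. In brain endothelium, cAMP is known for tightening cell junctions.

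The PRKAR1A promoter is shown because it is the only one among the matched genes that held the full cAMP response element, the palindrome TGACGTCA bound by CREB-family factors, and because PRKAR1A had the largest difference of the 8 genes. The PRKACB promoter is shown for contrast, as the gene with the largest difference in the other direction. Both windows are from RefSeq (GRCh38.p14), plus strand, at chr17:68512129-68512428 and chr1:84077829-84078128, and run from 250 bases before to 50 bases after an annotated start. Capitals mark TGACGTCA in PRKAR1A and, in PRKACB, the shorter site CGTCA, which is TGACG read on the other strand.
PRKAR1A: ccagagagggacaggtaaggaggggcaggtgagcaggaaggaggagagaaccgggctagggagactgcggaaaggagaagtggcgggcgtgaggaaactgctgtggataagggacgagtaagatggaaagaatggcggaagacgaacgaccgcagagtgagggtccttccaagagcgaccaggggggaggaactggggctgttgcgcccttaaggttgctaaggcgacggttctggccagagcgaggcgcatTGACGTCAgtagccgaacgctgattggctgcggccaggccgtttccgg
PRKACB: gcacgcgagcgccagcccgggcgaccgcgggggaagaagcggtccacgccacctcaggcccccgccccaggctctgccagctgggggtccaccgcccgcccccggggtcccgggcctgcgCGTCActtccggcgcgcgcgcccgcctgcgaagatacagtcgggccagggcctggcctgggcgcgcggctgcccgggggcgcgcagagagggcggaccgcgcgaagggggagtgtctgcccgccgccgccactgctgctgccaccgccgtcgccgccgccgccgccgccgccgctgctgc

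In the PRKAR1A window TGACGTCA began at base 253, just after the start site, and a second, overlapping PRKAR1A window held the same copy 49 bases before another annotated start. Of the 8 genes, 7 had windows in the RefSeq table, 22 in all, and TGACGTCA was in windows of 1 gene. The same palindrome was in 3.79% of the 9912 tested genes with a window and in 1.85% of all 35116 windows. TGACG, searched on both strands and contained in the palindrome, was in 9 of the 22 windows and in 5 of the 7 genes, against 40.8% of the tested genes and 24.6% of all windows. These shares are not like for like. The 7 genes have 22 windows, while the whole set has 35116 windows for 27305 genes, and overlapping windows can hold the same site. These are matches of letters, and binding at them was not measured here.

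The library totals ran from 15958362 to 20442278 counts in siUSP9X and from 17716250 to 26467787 counts in siCtrl. USP9X itself had 36.5, 68.7, 27.5, 22.3 and 20.7 counts per 1000000 counts (CPM) in siUSP9X libraries 1 to 5, against 415, 283, 330, 323 and 351 CPM in siCtrl libraries 1 to 5. The log2 fold change of USP9X was -3.28 ± 0.32 (SE), and -3.67 ± 0.16 without siUSP9X library 2. Library 2 of siUSP9X stood apart: 1.96% of its counts fell in ribosomal protein genes, while the share was 4.10% to 4.77% in siUSP9X libraries 1, 3, 4 and 5 and 4.42% to 5.84% in siCtrl, so the main values that rest on it are also given without it. The endothelial label had mixed backing in marker levels. Of 12 endothelial markers, ESAM, ENG and EGFL7 were above 1 CPM, ERG and EMCN had no counts in any library, and PECAM1, VWF, KDR, TEK, TIE1 and CLDN5 averaged at most 0.208 CPM in either group. CDH5 averaged 0.862 CPM in siUSP9X and 0.544 CPM in siCtrl. The summed endothelial markers ran from 109 to 254 CPM in siUSP9X and from 236 to 299 CPM in siCtrl. Summed mural markers ran from 4.12 to 6.46 CPM in siUSP9X and from 2.97 to 5.27 CPM in siCtrl, and fibroblast markers from 1.82 to 2.83 CPM in siUSP9X and from 1.41 to 2.59 CPM in siCtrl. Neural markers ran from 0.644 to 1.06 CPM in siUSP9X and from 0.378 to 0.719 CPM in siCtrl, and leukocyte markers reached at most 0.176 CPM in siUSP9X and 0.225 CPM in siCtrl, with MOG and CD3E at 0 throughout. Of the epithelial list, KRT8 and KRT18 made up nearly all of 2029 to 2755 CPM in siUSP9X and 3313 to 4173 CPM in siCtrl, while KRT5 and KRT14 had no counts. The part of these marker levels in the results below was not tested. In bulk RNA, fewer cells of a type and less RNA per cell cannot be told apart.

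PRKAR1A encodes the type I alpha regulatory subunit, the form present in most tissues, whose loss-of-function variants are a cause of Carney complex. It lies at chr17:68511780-68551319 on the plus strand (GRCh38, ENSG00000108946.14). PRKAR1A had 115, 149.6, 127, 101 and 106 CPM in siUSP9X libraries 1 to 5, against 334, 302, 299.6, 274 and 299 CPM in siCtrl libraries 1 to 5. The siUSP9X values all lay below those of siCtrl, and the highest siUSP9X value was in library 2. The means were 119.9 ± 19.4 CPM in siUSP9X and 301.7 ± 21.3 CPM in siCtrl (SD, n = 5 each), which is 2.52-fold lower in siUSP9X, with a log2 fold change of -1.33 ± 0.12 (SE). Without siUSP9X library 2 it was -1.42 ± 0.09. Only 0.28% of tested genes had a log2 fold change this low or lower, placing PRKAR1A at rank 39 from the lowest value. Of its longest transcript, 11.7% is shared in sequence with AC007780.1, a same-strand transcript that overlaps it and averaged 0.023 CPM.

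PRKACB encodes the beta catalytic subunit, 1 of the 2 main kinases of the family, and lies at chr1:84078062-84238498 on the plus strand (GRCh38, ENSG00000142875.19). PRKACB had 45.6, 92.7, 52.6, 43.7 and 48.2 CPM in siUSP9X libraries 1 to 5, against 38.7, 27.8, 33.2, 28.9 and 31.8 CPM in siCtrl libraries 1 to 5. Every siUSP9X library lay above every siCtrl library, and siUSP9X library 2 was far above the other 4. The means were 56.6 ± 20.5 CPM in siUSP9X and 32.1 ± 4.31 CPM in siCtrl (SD, n = 5 each), and its log2 fold change was 0.82 ± 0.21 (SE). Without siUSP9X library 2 the log2 fold change was 0.57 ± 0.10, and 3.75% of tested genes had a value as high as that from all 10 libraries. PRKACB met the threshold without siCtrl library 1 and without siUSP9X library 1, 2 or 4, and missed it when any other single library was left out, with log2 fold changes of 0.57 to 0.90 over the 10 fits.

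Of the 8 genes, PRKAR1A and PRKACB met the threshold for a call across the table (adjusted p under 0.05, edgeR quasi-likelihood test), PRKAR1A as lower and PRKACB as higher. That is 25.0% of the 8, where 7.31% of all tested genes were called, 3.22% as lower and 4.09% as higher. They were also the 2 genes whose groups did not overlap, which held for 14.6% of tested genes. The genes were chosen on this contrast, so the comparison of these shares is a description. Over the 8 genes the median log2 fold change was -0.05, with 4 values above 0 and 4 below, and over all tested genes it was 0.03. Leaving out siUSP9X library 2 gave a median of -0.08 for the 8, with 3 values above 0 and 5 below. The labels do not say whether replicates were separate cultures, so a call is relative to a spread between libraries that may be technical only.

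**Figure D1:**
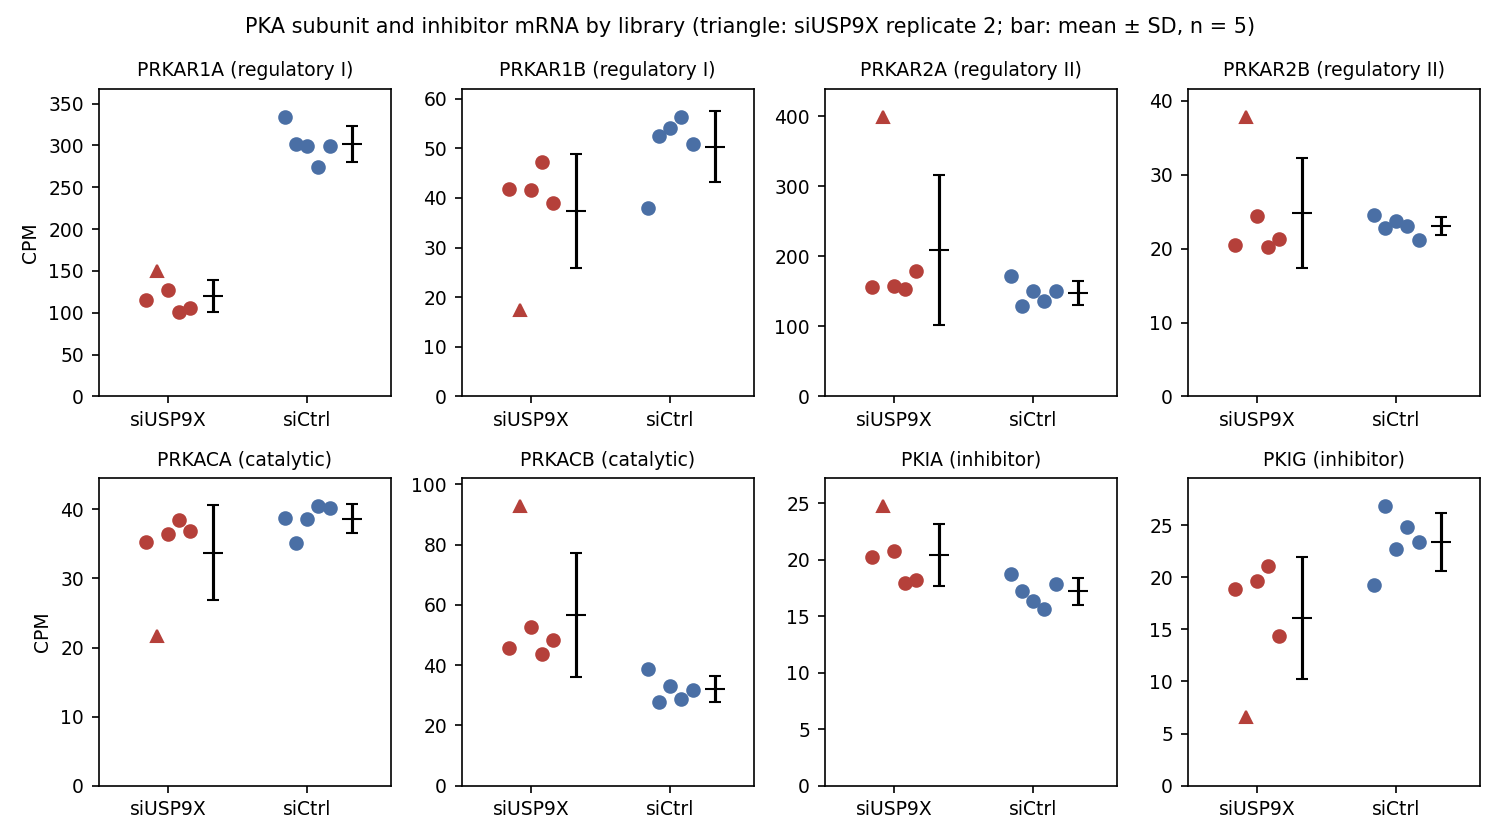
Level of each of the 8 PKA genes in CPM (linear axes starting at 0) in the 5 siUSP9X libraries (left, red; the triangle is library 2) and the 5 siCtrl libraries (right, blue), with the mean and SD as bars. PRKAR1A lies at 101 to 149.6 CPM in siUSP9X and at 274 to 334 CPM in siCtrl, and PRKACB is the one gene whose siUSP9X values all lie above those of siCtrl.

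Among the other regulatory subunits, PRKAR2A encodes the type II alpha form (chr3:48744597-48847846, minus strand, ENSG00000114302.15). PRKAR2A had 157, 399, 157, 153 and 179 CPM in siUSP9X libraries 1 to 5, against 172, 129, 151, 136 and 151 CPM in siCtrl libraries 1 to 5. Apart from library 2 the siUSP9X values lay close to or within the siCtrl range, and the groups overlapped. The log2 fold change of PRKAR2A was 0.50 ± 0.26 (SE) with all libraries and 0.13 ± 0.09 without siUSP9X library 2, with means of 209 ± 107 CPM in siUSP9X and 148 ± 16.7 CPM in siCtrl (SD, n = 5 each). PRKAR2B, the type II beta form best known from fat and brain (chr7:107044649-107161811, plus strand, ENSG00000005249.12), had 20.5, 37.8, 24.4, 20.2 and 21.2 CPM in siUSP9X and 24.5, 22.8, 23.8, 23.1 and 21.2 CPM in siCtrl. Its groups overlapped, and its log2 fold change changed sign with library 2, from 0.10 ± 0.17 (SE) with all libraries to -0.10 ± 0.09 without it.

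PRKAR1B encodes the type I beta form, best known from neurons (chr7:549197-727650, minus strand, ENSG00000188191.14). PRKAR1B had 41.8, 17.5, 41.6, 47.1 and 39.1 CPM in siUSP9X libraries 1 to 5, against 38.0, 52.5, 54.0, 56.3 and 50.9 CPM in siCtrl libraries 1 to 5. The groups overlapped through siCtrl library 1, the lowest of its group, and siUSP9X library 2 was lowest of all. The log2 fold change was -0.43 ± 0.23 (SE), and -0.25 ± 0.11 without siUSP9X library 2. PRKAR1B overlaps DNAAF5 on the opposite strand by 950 bases. DNAAF5 averaged 64.3 CPM. The library kit keeps strand, but the sources used here do not give the strand setting of the counting.

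PRKACA encodes the alpha catalytic subunit, the other main kinase of the family (chr19:14091688-14118084, minus strand, ENSG00000072062.13). PRKACA had 35.3, 21.6, 36.4, 38.5 and 36.9 CPM in siUSP9X libraries 1 to 5, against 38.8, 35.2, 38.6, 40.5 and 40.2 CPM in siCtrl libraries 1 to 5. The groups overlapped, with siUSP9X library 2 below all others. The log2 fold change was -0.20 ± 0.15 (SE), and -0.07 ± 0.08 without that library. So the 2 catalytic subunits differed in their pattern: PRKACB was higher in every siUSP9X library than in any siCtrl library, while the PRKACA ranges overlapped.

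The inhibitors pointed in opposite directions. PKIA had 20.3, 24.7, 20.8, 17.97 and 18.2 CPM in siUSP9X libraries 1 to 5, against 18.7, 17.3, 16.4, 15.7 and 17.8 CPM in siCtrl, with a log2 fold change of 0.25 ± 0.12 (SE). PKIG had 18.9, 6.58, 19.6, 21.0 and 14.3 CPM in siUSP9X, against 19.3, 26.8, 22.7, 24.8 and 23.4 CPM in siCtrl, with a log2 fold change of -0.54 ± 0.26 (SE). The groups overlapped for both, in PKIG only through siCtrl library 1 and the highest siUSP9X libraries. Without siUSP9X library 2 the log2 fold changes were 0.17 ± 0.10 for PKIA and -0.34 ± 0.12 for PKIG, and PKIG then met the threshold as lower, in a fit that called 23.4% of 14086 tested genes. PKIG overlaps ADA, at 25.6 CPM on the opposite strand, by 4726 bases.

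**Figure D2:**
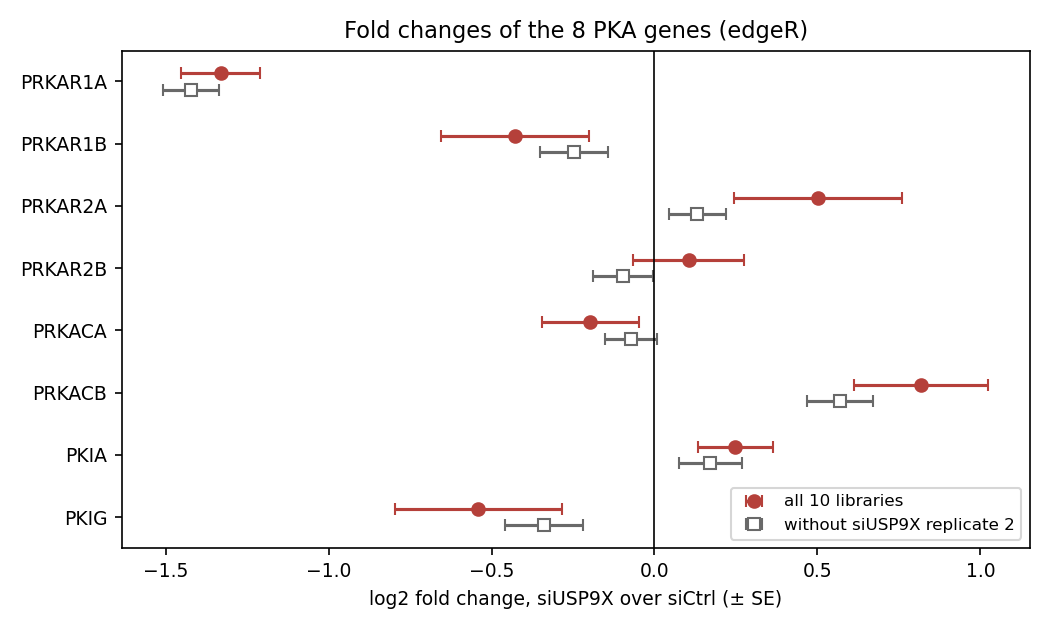
Log2 fold change of siUSP9X over siCtrl (horizontal axis, ± SE, edgeR) for the 8 PKA genes, with all 10 libraries (red circles) and without siUSP9X library 2 (open squares). PRKAR1A stays between -1.42 and -1.33, PRKACB goes to 0.57 and the other genes move closer to 0, PRKAR2B across it.

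To compare levels between genes, CPM were divided by the length of each gene's longest protein-coding transcript in kb. In siUSP9X, PRKAR2A was first at 32.3 ± 16.5 CPM per kb, followed by PRKAR1A at 27.7 ± 4.47, PRKAR1B at 14.7 ± 4.51, PRKACA at 12.6 ± 2.57, PRKACB at 12.5 ± 4.54, PKIG at 10.8 ± 3.95, PRKAR2B at 6.63 ± 1.99 and PKIA at 4.90 ± 0.65 CPM per kb (SD, n = 5). In siCtrl the order was PRKAR1A at 69.7 ± 4.92 CPM per kb, PRKAR2A at 22.8 ± 2.58, PRKAR1B at 19.7 ± 2.81, PKIG at 15.7 ± 1.87, PRKACA at 14.4 ± 0.79, PRKACB at 7.11 ± 0.95, PRKAR2B at 6.17 ± 0.33 and PKIA at 4.13 ± 0.29 CPM per kb (SD, n = 5). PRKAR1A stood clear of every other gene in siCtrl, where its lowest library (63.4 CPM per kb) was above the highest of PRKAR2A (26.6 CPM per kb). In siUSP9X its range, 23.4 to 34.6 CPM per kb, lay within that of PRKAR2A, 23.7 to 61.7 CPM per kb, apart from the lowest values. The highest PRKAR2A value was library 2, on which its first place in siUSP9X rested. Without library 2 the mean share of length-corrected regulatory mRNA in siUSP9X was 35.4% for PRKAR1A and 34.1% for PRKAR2A. Of the next neighbours in the siCtrl order, PRKAR2A and PRKAR1B, PRKAR1B and PKIG, PKIG and PRKACA, and PRKACB and PRKAR2B overlapped in range, while PRKACA and PRKACB, and PRKAR2B and PKIA, did not. In the siUSP9X order PRKAR1A and PRKAR1B were the only neighbours whose ranges did not overlap, with library 2 included. Library 2 held the highest or lowest siUSP9X value of every one of these genes. The other overlaps, and the places after PRKAR1A, can therefore rest on it and were not computed without it.

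The make-up of the regulatory pool followed from these levels. Type I subunits made up 59.2%, 36.6%, 59.7%, 59.0% and 54.4% of length-corrected regulatory mRNA in siUSP9X libraries 1 to 5, against 73.5%, 77.7%, 75.2%, 75.9% and 75.5% in siCtrl libraries 1 to 5. The ranges did not overlap, and library 2 was the lowest of siUSP9X. The mean type I share was 53.8% ± 9.84 in siUSP9X, or 58.1% ± 2.49 without library 2, against 75.6% ± 1.48 in siCtrl. PRKAR1A alone took 34.4% ± 3.12 of the pool in siUSP9X, or 35.4% ± 2.60 without library 2, and 58.8% ± 2.07 in siCtrl. PRKAR2A took 38.2% ± 9.41 in siUSP9X, or 34.1% ± 2.64 without library 2, and 19.2% ± 1.52 in siCtrl. PRKAR2B took 8.06% ± 0.62 in siUSP9X, or 7.85% ± 0.45 without library 2, and 5.21% ± 0.25 in siCtrl (SD, n = 5 each with all libraries). PRKAR1B, the other type I subunit, took 19.4% ± 7.71 in siUSP9X, or 22.7% ± 2.32 without library 2, and 16.7% ± 2.89 in siCtrl. Without the length correction the type I share was 42.2% ± 8.45 in siUSP9X and 67.4% ± 1.68 in siCtrl. These shares are of mRNA, and protein was not measured here.

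Regulatory mRNA also stood in another ratio to catalytic mRNA. The ratio per length was 3.12, 3.96, 3.03, 2.95 and 2.99 in siUSP9X libraries 1 to 5, against a range of 5.23 to 6.03 in siCtrl, with means of 3.21 ± 0.42 in siUSP9X and 5.51 ± 0.31 in siCtrl (SD, n = 5 each). No siUSP9X library reached the lowest siCtrl ratio, and library 2 was here the siUSP9X library nearest to siCtrl. Without library 2 the siUSP9X mean of this ratio was 3.02 ± 0.07 (SD). The ratio of PRKACB to PRKACA was 0.767, 2.54, 0.856, 0.674 and 0.774 in siUSP9X libraries 1 to 5, against 0.592, 0.469, 0.509, 0.423 and 0.469 in siCtrl libraries 1 to 5. Every siUSP9X value was above every siCtrl value, and the siUSP9X mean of 1.12 ± 0.80 was 0.768 ± 0.075 without library 2. The ratio of inhibitor to catalytic mRNA averaged 0.635 ± 0.171 in siUSP9X and 0.928 ± 0.142 in siCtrl, with overlapping ranges of 0.362 to 0.767 in siUSP9X and 0.756 to 1.15 in siCtrl. The lowest siUSP9X value was library 2, without which the siUSP9X mean was 0.703 ± 0.0895 (SD).

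**Figure D3:**
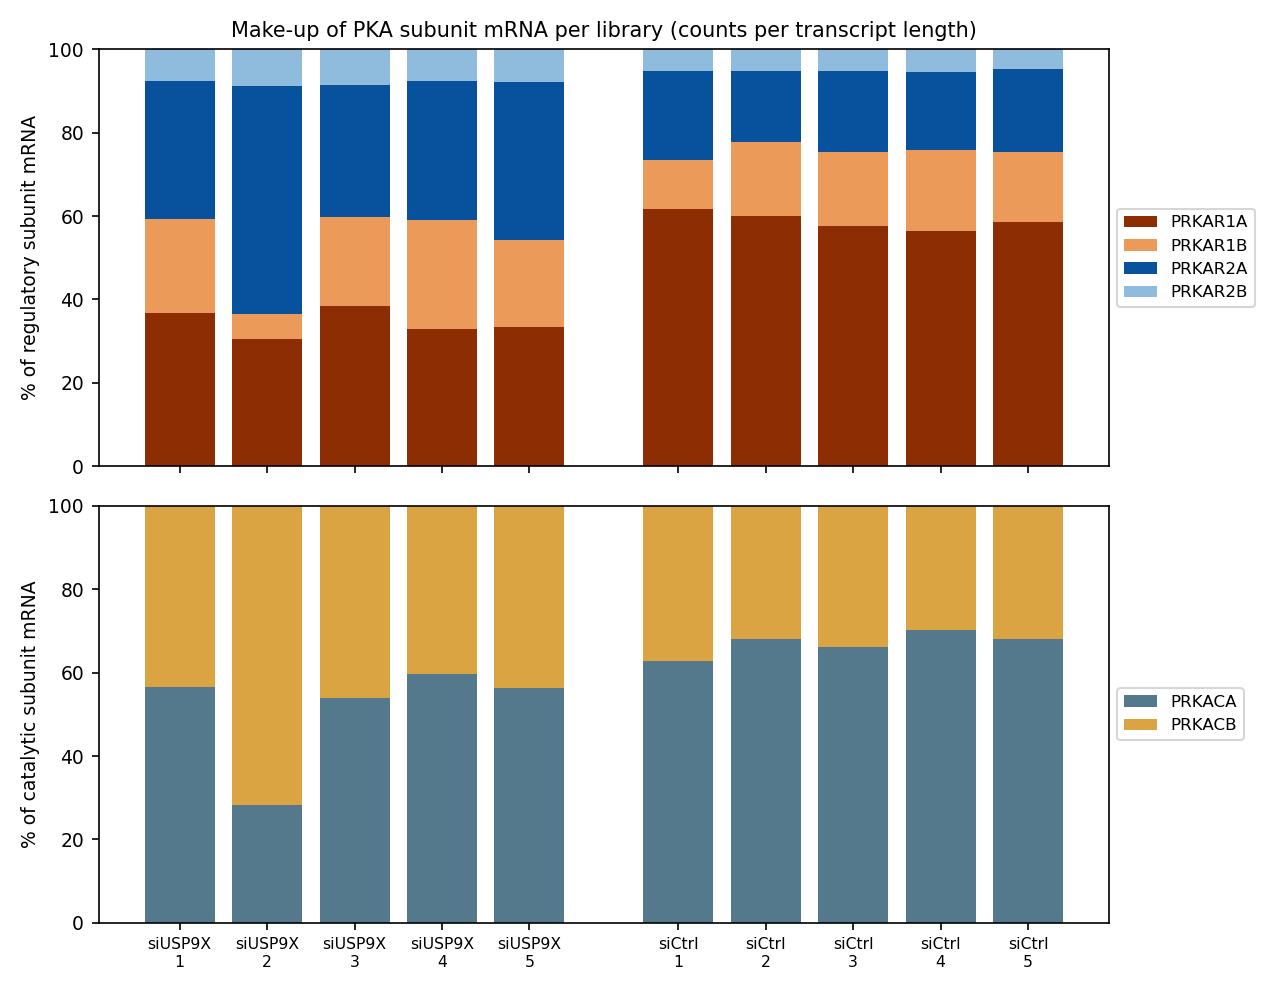
Stacked bars of the share (%) of each regulatory subunit (top) and each catalytic subunit (bottom) in the length-corrected mRNA of its class, 1 bar per library, siUSP9X libraries on the left and siCtrl libraries on the right. PRKAR1A takes 30.5% to 38.4% of the regulatory bar in siUSP9X and 56.3% to 61.7% in siCtrl, and PRKACB takes 40.3% to 71.8% of the catalytic bar in siUSP9X and 29.7% to 37.2% in siCtrl.

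Library 2 of siUSP9X differed from the other 4 siUSP9X libraries in all 8 genes, and the direction went with both the base composition and the length of the transcripts. In the 5 genes with a transcript GC content of 37.9% to 45.5% (PRKACB, PKIA, PRKAR1A, PRKAR2B and PRKAR2A) library 2 was the highest of siUSP9X, by 0.36 to 1.31 on the log2 scale over the mean of the other 4. In the 3 genes with 55.1% to 62.4% GC (PKIG, PRKACA and PRKAR1B) it was the lowest, by a log2 difference of -0.76 to -1.47. The first 5 also have the longer transcripts, 3.745 to 6.471 kb, and the last 3 the shorter ones, 1.489 to 2.677 kb. Over all tested genes with a coding transcript, library 2 was higher than the mean of the other 4 in 77.2% of the 6509 genes under 50% GC and lower in 80.8% of the 5454 genes at or above it. By length, it was higher in 69.0% of the 6977 genes of 3 kb or longer and lower in 74.8% of the 4986 shorter ones. Among siCtrl, library 1 was the highest for the same 5 genes, and the lowest for PRKAR1B and PKIG. The difference of PRKAR1A between siUSP9X and siCtrl was in the opposite direction to its shift in siUSP9X library 2, that of PRKACB in the same direction. The part of base composition and length in the differences between siUSP9X and siCtrl was not tested for any of these genes.

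**Figure D4:**
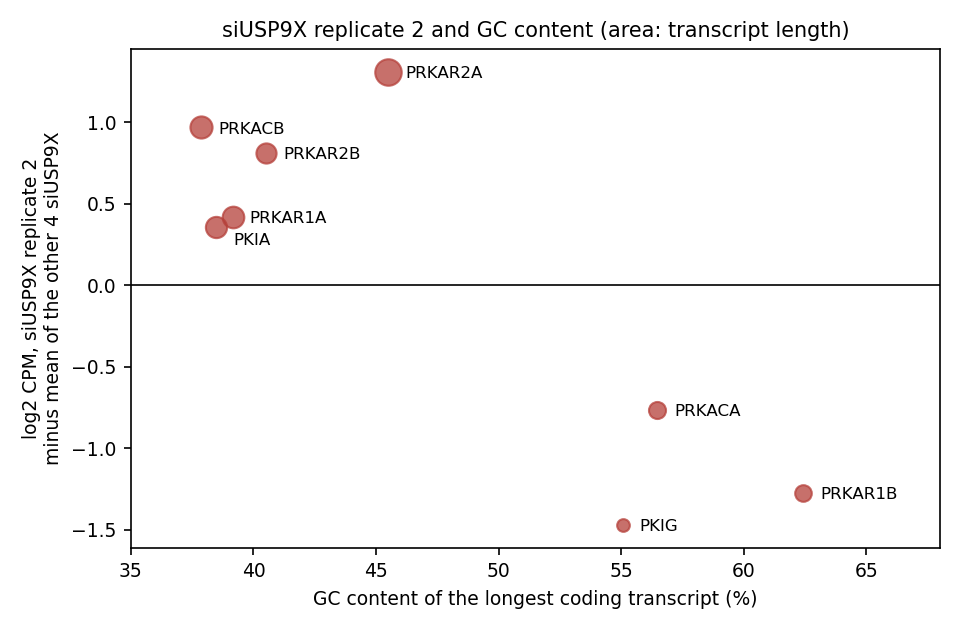
Difference of siUSP9X library 2 from the mean of the other 4 siUSP9X libraries (vertical axis, log2 CPM) against the GC content of each gene's longest coding transcript (horizontal axis, %) for the 8 PKA genes, with point area in proportion to transcript length. The 5 genes at 37.9% to 45.5% GC lie above 0 and the 3 genes at 55.1% to 62.4% GC lie below 0.

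Genes with the profile nearest to PRKAR1A over the 10 libraries were sought among 10558 genes with a mean of at least 5 CPM, by the root-mean-square difference of log2 values centred on the gene's mean. They were MYCBP (0.080), CALU (0.096) and MESD (0.109), where the median over all genes searched was 0.745. MYCBP, which encodes a MYC-binding protein, averaged 15.2 CPM in siUSP9X and 38.7 CPM in siCtrl, with a log2 fold change of -1.35 ± 0.11 (SE). CALU, a calcium-binding protein of the endoplasmic reticulum, averaged 192 CPM in siUSP9X and 534 CPM in siCtrl, and MESD, a chaperone for Wnt co-receptors of the LRP family, 23.1 CPM in siUSP9X and 62.5 CPM in siCtrl. The nearest to PRKACB were PHTF2 (0.057), MAN2A1, a Golgi mannosidase (0.061), and ATP2B1, a calcium pump of the plasma membrane (0.068), with a median of 0.518 over all genes. Their log2 fold changes were 0.81, 0.82 and 0.78, close to that of PRKACB, since likeness was measured on the same libraries, and without siUSP9X library 2 they were 0.51, 0.55 and 0.51.

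The 3′ UTR of PRKAR1A was also searched for 4 words, the first AATCACA, the second AACTCTA, the third ATCACAA and the fourth CAACTCT, because an earlier search over the fold changes of these same libraries had picked them among the lower genes. Their share among lower genes is therefore no independent support. At least 1 word was in the longest 3′ UTR of 51.5% of 429 lower genes, 28.5% of 512 higher genes and 31.5% of all 11923 tested genes with a UTR. Of the 8 PKA genes, PRKAR1A held AACTCTA, which 18.6% of lower genes and 10.1% of all genes hold, and PKIA held AATCACA and ATCACAA, while the longest 3′ UTRs of the other 6 held none of the 4. These shares are not matched for length. The PRKAR1A UTR has 2982 bases, while the median was 1226 bases in lower genes and 1407 in all genes, and a longer UTR has more room for a word. CALU and MESD held AACTCTA and CAACTCT, and MYCBP held CAACTCT. ATP2B1, a neighbour of PRKACB, held AACTCTA and CAACTCT too. CALU, MESD and MYCBP were chosen for profiles like that of PRKAR1A in these same libraries, and each was called lower. The words they hold are therefore no independent support either. Of the lower genes in the pathway lists, RAP1A held some of the words, while ADORA2B, EGR1, NDE1 and POPDC3 held none. The site in PRKAR1A is printed because PRKAR1A is the lower gene of the 8. It starts at base 444 of a 2982-base UTR, at chr17:68530883-68530909 on the plus strand (GENCODE 29, GRCh38), with the word in capitals.
PRKAR1A site: tttctcattaAACTCTAaagattaggg

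The rest of the cAMP pathway was read from 11 lists of genes by role, 179 genes in the table, of which 118 were tested. With p adjusted over all tested genes (edgeR), 7 rose, 5 fell and 106 were not called, which is 10.2% called, beside the 7.31% over all tested genes. The median log2 fold change of the 118 was 0.08. As background for the lists below, 3877 of all 13934 tested genes were at an unadjusted p under 0.05 in edgeR. Of the 13934, DESeq2 called 1264 higher and 1078 lower, and limma-voom 546 higher and 491 lower. Without siUSP9X library 2, 22 were called higher and 14 lower, 30.5% of them, in the fit that called 23.4% of all genes. The calls lay in CREB targets, anchoring proteins, other cAMP effectors, and 4 lists with 1 call each.

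CREB targets, genes with cAMP response elements that CREB switches on, had 3 members that rose and 1 that fell of 15 tested, with a list median of -0.11. CITED2, a co-regulator that binds CBP and p300, had 121, 81.4, 132, 152 and 154 CPM in siUSP9X libraries 1 to 5, against 51.8, 53.6, 51.7, 55.0 and 54.6 CPM in siCtrl libraries 1 to 5. The ranges were apart, with siUSP9X library 2 nearest to siCtrl, and the log2 fold change was 1.26 ± 0.16 (SE; adjusted p = 0.00112 in edgeR). BDNF, a growth factor of neurons and endothelium, averaged 6.67 ± 1.46 CPM in siUSP9X and 2.78 ± 0.48 CPM in siCtrl (SD, n = 5 each), with a log2 fold change of 1.26 ± 0.18 (edgeR adjusted p = 0.00282). IRS2, an adaptor of the insulin receptor, averaged 104 ± 8.02 CPM in siUSP9X and 67.7 ± 6.52 CPM in siCtrl, with a log2 fold change of 0.63 ± 0.10 (edgeR adjusted p = 0.00545). EGR1, an immediate-early transcription factor, fell to 26.5 ± 7.91 CPM in siUSP9X, against 50.6 ± 4.95 CPM in siCtrl, and its log2 fold change was -0.93 ± 0.19 (edgeR adjusted p = 0.015). For these 4 genes no siUSP9X library overlapped siCtrl, and each met the threshold in all 10 fits that left out 1 library. The list median was below 0 although 3 of the 4 called members rose, since 10 of the 15 tested had values below 0. It was 0.04 without siUSP9X library 2, with 4 called higher and 3 lower. In that fit CITED2 had a log2 fold change of 1.39 ± 0.08 and BDNF 1.34 ± 0.18 (SE). IRS2 had 0.58 ± 0.08 and EGR1 -0.83 ± 0.14 (SE).

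Of the CREB family itself and its coactivators, 11 genes were tested and none was called by edgeR or limma-voom. In edgeR 2 were at an unadjusted p under 0.05, beside 3877 of all 13934 tested genes. DESeq2 called 1 higher and 1 lower, beside 1264 and 1078 over all tested genes. CREB1, the founding factor, averaged 56.4 ± 27.5 CPM in siUSP9X and 43.4 ± 6.85 CPM in siCtrl (SD, n = 5 each), with 105 CPM in siUSP9X library 2 and 38.2 to 47.1 CPM in the other 4. Its log2 fold change was 0.38 with all libraries and 0.03 without library 2. EP300, a histone acetyltransferase that CREB recruits, had the highest level of the list, with a log2 fold change of 0.45 ± 0.22 (SE), which was 0.24 ± 0.14 without library 2.

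Anchoring proteins hold PKA, mostly type II, at its sites of action. Of 19 tested, 2 rose and none fell, with a list median of 0.30 and 15 values above 0. In edgeR 9 were at an unadjusted p under 0.05 in either direction, beside 3877 of all 13934 tested genes. DESeq2 called 6 higher and 2 lower, beside 1264 and 1078 over all tested genes, and limma-voom 2 higher. The list median was 0.18 without siUSP9X library 2, again with 15 values above 0, and edgeR called 5 higher and 1 lower. AKAP12, a large scaffold also called gravin, averaged 1254 ± 354 CPM in siUSP9X and 786 ± 84.7 CPM in siCtrl (SD, n = 5 each), with a log2 fold change of 0.67 ± 0.17 (SE; adjusted p = 0.0365 in edgeR). Its siUSP9X library 2 had 1884 CPM and the other 4 had 1043 to 1138 CPM, all above the siCtrl libraries, and without library 2 the log2 fold change was 0.48 ± 0.08. NBEA, a BEACH-domain protein of membrane traffic, averaged 5.74 ± 2.34 CPM in siUSP9X and 2.62 ± 0.78 CPM in siCtrl, a log2 fold change of 1.13 ± 0.28 (edgeR adjusted p = 0.0378), and 0.84 ± 0.21 without library 2. AKAP12 kept its call without siUSP9X library 2 or 4 alone, NBEA without siCtrl library 1 or siUSP9X library 2 or 4, and both lost it when any other single library was left out. AKAP1, the anchor at mitochondria, was lower in every siUSP9X library than in siCtrl, with a log2 fold change of -0.19 ± 0.09, and was not called by edgeR or limma-voom (adjusted p = 0.165 in edgeR), while DESeq2 called it lower (adjusted p = 0.0293).

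Of the proteins that make cAMP, 11 adenylyl cyclase and G protein genes were tested and none was called by edgeR or limma-voom. In edgeR 2 were at an unadjusted p under 0.05, beside 3877 of all 13934 tested genes. DESeq2 called 1 higher, beside 1264 over all tested genes. GNAS, which encodes the stimulatory G protein alpha subunit, averaged 1990 ± 561 CPM in siUSP9X and 2251 ± 126 CPM in siCtrl (SD, n = 5 each), with 1002 CPM in siUSP9X library 2, and its log2 fold change of -0.18 was -0.01 without that library. Of 27 genes for receptors that couple to this G protein, 7 were tested and 10 had no counts at all. ADORA2B, an adenosine receptor and the highest of the list, had 62.8, 59.6, 58.1, 61.7 and 60.8 CPM in siUSP9X libraries 1 to 5, against 77.2, 80.0, 79.8, 79.4 and 73.4 CPM in siCtrl libraries 1 to 5. The groups did not overlap and siUSP9X library 2 lay among the others, with a log2 fold change of -0.36 ± 0.08 (SE; adjusted p = 0.0241 in edgeR). ADORA2B kept its call without siCtrl library 1 or siUSP9X library 1, 2 or 4 and lost it without any other single library, with log2 fold changes of -0.39 to -0.35 in these fits.

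Phosphodiesterases break cAMP down. Of 7 tested, 1 rose: PDE3B, an enzyme known for its control by insulin, averaged 15.7 ± 5.16 CPM in siUSP9X and 9.09 ± 0.73 CPM in siCtrl (SD, n = 5 each), with a log2 fold change of 0.79 ± 0.19 (SE; adjusted p = 0.0306 in edgeR). It had 24.8 CPM in siUSP9X library 2 and 12.4 to 14.3 CPM in the other 4, all above siCtrl, and a log2 fold change of 0.57 ± 0.11 without library 2. PDE3B kept its call without siUSP9X library 2, 3 or 4 and lost it without any other single library. PDE4D, the phosphodiesterase often found with anchoring proteins, was above siCtrl in every siUSP9X library (7.58 ± 4.31 CPM in siUSP9X, 3.87 ± 0.38 CPM in siCtrl), with a log2 fold change of 0.97 ± 0.30, and was not called with all libraries (edgeR adjusted p = 0.0707). It was called without siUSP9X library 2, at 0.56 ± 0.16. PDE8A, the highest of the list, had a log2 fold change of 0.21 ± 0.15, which was 0.06 ± 0.09 without library 2, where it had 60.5 CPM.

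Effectors of cAMP other than PKA include the exchange factors RAPGEF3 and RAPGEF4, also called EPAC, and the small GTPases RAP1A and RAP1B that they switch on. Of 6 tested, 2 fell. RAP1A averaged 39.0 ± 3.07 CPM in siUSP9X and 53.5 ± 5.15 CPM in siCtrl (SD, n = 5 each), with a log2 fold change of -0.45 ± 0.10 (SE, adjusted p = 0.0255 in edgeR). POPDC3, a cAMP-binding membrane protein of the Popeye family, averaged 6.38 ± 0.59 CPM in siUSP9X and 8.88 ± 1.01 CPM in siCtrl, with a log2 fold change of -0.48 ± 0.12 (edgeR adjusted p = 0.0415). RAP1A kept its call without siCtrl library 4 or siUSP9X library 2 or 3, POPDC3 without siUSP9X library 2, and each lost it without any other single library. RAP1B had a log2 fold change of 0.05 ± 0.11, which was -0.0044 without siUSP9X library 2. RAPGEF3 averaged 71.3 ± 13.2 CPM in siUSP9X and 84.0 ± 8.31 CPM in siCtrl and was not called, with a log2 fold change of -0.24, or -0.14 without siUSP9X library 2, while RAPGEF4 had 2 counts in all siUSP9X libraries together and 1 in siCtrl.

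None of the tested relatives of the 8 genes was called by edgeR with all libraries, and some relatives were scarcely seen. PRKX, an X-linked kinase close to the PKA catalytic subunits, averaged 16.4 ± 2.89 CPM in siUSP9X and 19.9 ± 1.78 CPM in siCtrl (SD, n = 5 each), with a log2 fold change of -0.28 ± 0.13 (SE) that was not called. Without siUSP9X library 2 PRKX was called as lower, at -0.39 ± 0.10. PKIB, the third inhibitor, averaged 1.65 ± 0.26 CPM in siUSP9X and 1.99 ± 0.52 CPM in siCtrl. PRKG2, the other tested relative, averaged 1.35 ± 0.57 CPM in siUSP9X and 0.783 ± 0.230 CPM in siCtrl. Its log2 fold change was 0.79 ± 0.33 (unadjusted p = 0.0364, adjusted p = 0.152, both in edgeR). The groups overlapped, at 12 to 39 counts in siUSP9X, the most in library 2, and 9 to 21 counts in siCtrl. PRKACG, a catalytic subunit gene known from testis, had no counts in any library, which allows at most 0.113 to 0.185 CPM per library, a limit for counting error only. None of the 3 tested relatives was called by edgeR, DESeq2 or limma-voom. In edgeR 1 was at an unadjusted p under 0.05, beside 3877 of all 13934 tested genes.

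Of 8 genes that fold, modify or degrade PKA subunits, none was called by edgeR or limma-voom. In edgeR 4 were at an unadjusted p under 0.05, beside 3877 of all 13934 tested genes. DESeq2 called 2 higher, beside 1264 over all tested genes. PJA2, a ubiquitin ligase known to degrade PKA regulatory subunits, averaged 177 ± 84.0 CPM in siUSP9X and 113 ± 10.3 CPM in siCtrl (SD, n = 5 each), with 326 CPM in siUSP9X library 2. Its log2 fold change in edgeR was 0.65 ± 0.24 (SE) and not called with all libraries, and 0.31 ± 0.09 and called without library 2. NMT1, an enzyme that adds myristate to the catalytic subunit, had a log2 fold change of 0.04 ± 0.09, which was -0.0068 without library 2. Of 25 tested substrates, NDE1, a dynein regulator, fell to 47.5 ± 2.84 CPM in siUSP9X, against 60.8 ± 3.25 CPM in siCtrl, a log2 fold change of -0.36 ± 0.09 (edgeR adjusted p = 0.0375), a call it kept without siUSP9X library 2 and lost without any other single library. FLNA, an actin crosslinker and the highest substrate, had a log2 fold change of 0.33 ± 0.13 and was not called.

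In the Hedgehog pathway, where PKA phosphorylates the GLI factors and so restrains them, 1 of 6 tested genes rose. GLI2 had 24, 29, 26, 24 and 23 counts in siUSP9X libraries 1 to 5, against 4, 3, 12, 10 and 10 counts in siCtrl libraries 1 to 5. The counts were few but did not overlap, at 1.47 ± 0.10 CPM in siUSP9X and 0.391 ± 0.215 CPM in siCtrl, with a log2 fold change of 1.90 ± 0.33 (SE; adjusted p = 0.00747 in edgeR). SUFU, an inhibitor of the GLI factors, had a log2 fold change of -0.04 ± 0.11.

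**Figure D5:**
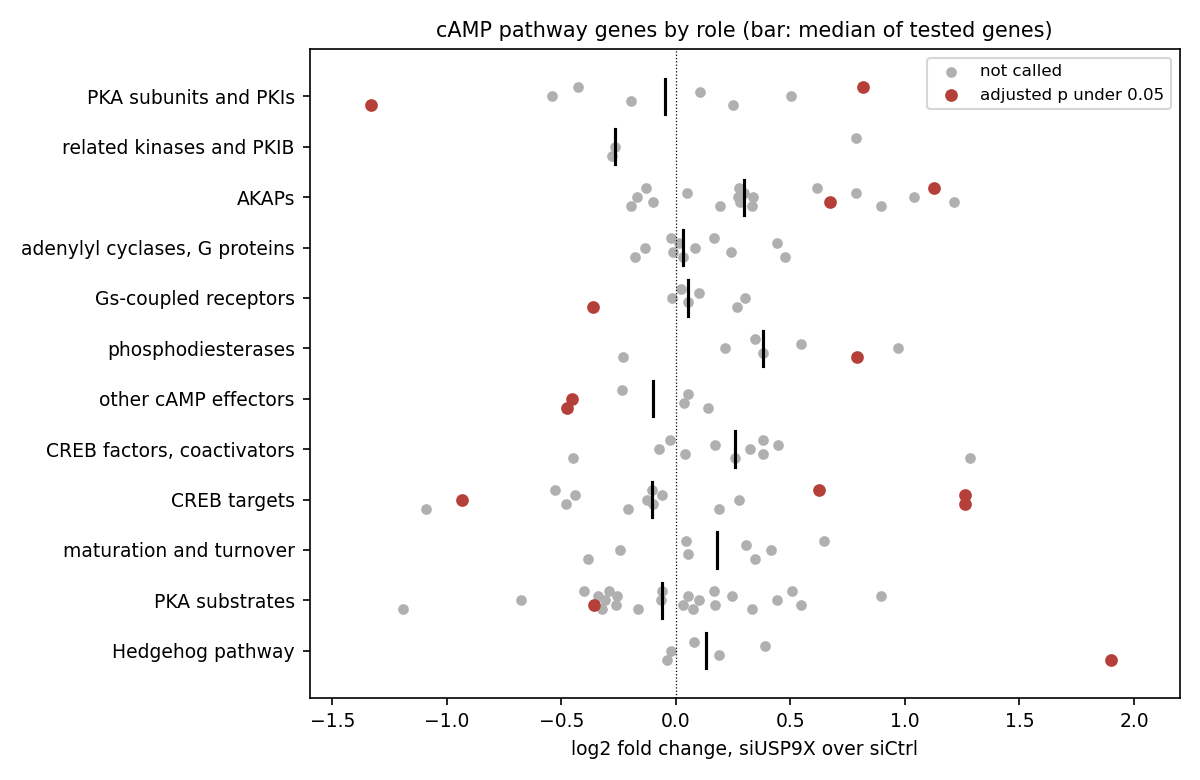
Log2 fold change of siUSP9X over siCtrl (horizontal axis) for each tested gene of the 8 PKA genes (top row) and of the 11 pathway lists, with genes at an edgeR adjusted p under 0.05 in red, the others in grey and the median of each list as a bar. PRKAR1A at -1.33 is the leftmost point of the plot. The bars lie at 0.30 for the anchoring proteins, of which 2 of 19 are red, and at 0.38 for the phosphodiesterases, of which 1 of 7 is red.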

How the data were processed

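Deposited values were whole-number counts per gene symbol for 10 libraries, 1 column each, not normalized by the authors as far as the values show. The submitters' processing notes name RSEM, DESeq2 and hg38, with no role or version, so the counts may be rounded RSEM estimates. Aligner, annotation and strand setting are not given in the sources used here. Per the labels' protocols, libraries were made from TRIzol RNA with a stranded mRNA kit. Groups come from the treatment labels and replicate numbers from the titles. The least different pair of replicates had a chi-square of 4.92 per degree of freedom, so each library counted as 1 sample.

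Genes were tested with edgeR 4.0.16 (R 4.3.3; robust quasi-likelihood fit, TMM factors, filterByExpr with a minimum count of 10, group as the only term), with two-sided p adjusted by Benjamini-Hochberg over 13934 genes. The method was tested on simulated data. CPM are counts per 1000000 of the total times its TMM factor. Standard errors come from the fold change and its F statistic. Alternatives used DESeq2 1.42.0, limma 3.58.1, other factors and filters, and each library left out in turn. Coordinates, transcript lengths and 3′ UTRs come from GENCODE 29 (GRCh38), and promoter windows from RefSeq (GRCh38.p14), a table that was matched by symbol.

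The 8 genes and the pathway and marker lists were chosen with earlier results of these data known. The genes named are the 8, USP9X, up to 4 called genes with the smallest p and the highest-level gene of each list, 11 further genes set by name, and the 3 nearest profiles of each called PKA gene. PRKG2 was named in addition, as the remaining tested relative. Totals of 15958362 to 26467787 counts leave the 8 genes at 119 counts or more in each library.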

Additional observations from a re-analysis of the deposited data

Results flagged for a closer look

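In groups of 5 libraries, a library was singled out where its gap to the nearest other library was over 0.71 of the whole range (Dixon's 95% critical value). Of 80 groups of values examined, 17 held such a library, and 16 of the 17 were siUSP9X library 2. Chance gives about 1 in 20 for independent groups. The groups here share the same libraries and in part the same genes, so that rate is no measure for them. For the PKA genes this library was lowest for PRKAR1B (17.5 CPM, against 39.1 to 47.1 CPM in the other 4) and PRKACA (21.6, against 35.3 to 38.5 CPM). It was highest for PRKAR2A (399, against 153 to 179 CPM), PRKAR2B (37.8, against 20.2 to 24.4 CPM) and PRKACB (92.7, against 43.7 to 52.6 CPM). PRKAR1A did not meet the rule.

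Among pathway genes, siUSP9X library 2 was highest for AKAP12 (1884 CPM, against 1043 to 1138 CPM), NBEA (9.84, against 4.0 to 5.21 CPM), PDE3B (24.8, against 12.4 to 14.3 CPM), PDE4D (15.2, against 4.82 to 6.81 CPM), EP300 (257, against 137 to 158 CPM), CREB1 (105, against 38.2 to 47.1 CPM) and PJA2 (326, against 122 to 155 CPM). It was lowest for GNAS (1002, against 2115 to 2380 CPM). Its type I share of regulatory mRNA was 36.6%, against 54.4% to 59.7%, its ratio of regulatory to catalytic mRNA 3.96, against 2.95 to 3.12, and its ratio of PRKACB to PRKACA 2.54, against 0.674 to 0.856.

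The remaining case was siCtrl library 2, where the ratio of PRKAR1A to PRKAR2A per length was 3.51, against 2.91 to 3.02 in the other siCtrl libraries. All 5 siUSP9X libraries were lower, at 0.560 to 1.21. The cause of these departures was not tested.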

How the results depend on the processing

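PRKAR1A stayed lower and past the threshold in all 19 alternatives, with log2 fold changes of -1.42 to -1.28. PRKACB stayed higher in all 19 (0.57 to 0.90) and past the threshold in 12. PRKAR2B reversed to -0.054 with limma-voom library weights and to -0.096 without siUSP9X library 2, NMT1 to -0.025 and -0.0068 under the same settings, and RAP1B to -0.0044 without siUSP9X library 2. Leaving out 1 library gave up to 0.168 for PRKAR2B, 0.081 for NMT1 and 0.096 for RAP1B. Called genes over the table, 570 higher and 449 lower, became 1264 and 1078 with DESeq2, 2473 and 2444 with library weights, and 102 and 136 at a threshold of 0.01. Leaving out 1 library gave 170 to 1674 higher and 189 to 1620 lower, the most without siUSP9X library 2. Of the 8 PKA genes, 1 higher and 1 lower, the higher count was 0 at 0.01 and the lower count 3 with library weights, and leaving out 1 library gave 0 to 1 higher and 1 to 2 lower. Pathway calls, 7 higher and 5 lower, became 17 and 9 with DESeq2, 30 and 17 with library weights, and 4 and 0 at 0.01. The lower count was 3 with library totals and 1 with no filter, and leaving out 1 library gave 4 to 22 higher and 1 to 14 lower. The cause of these changes was not tested.

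Shares and ratios moved with raw counts in place of counts per length, where the direction between groups stayed as reported. They were then 42.2% in siUSP9X and 67.4% in siCtrl for the type I share, 10.6% in siUSP9X and 9.71% in siCtrl for PRKAR1B, 51.5% in siUSP9X and 28.2% in siCtrl for PRKAR2A. They were 6.36% in siUSP9X and 4.42% in siCtrl for PRKAR2B, 56.8% in siUSP9X and 42.5% in siCtrl for PKIA, 43.2% in siUSP9X and 57.5% in siCtrl for PKIG. The ratios were 4.27 in siUSP9X and 7.41 in siCtrl for regulatory to catalytic, 0.414 in siUSP9X and 0.578 in siCtrl for inhibitor to catalytic, 0.634 in siUSP9X and 2.05 in siCtrl for PRKAR1A to PRKAR2A. PRKACA was 38.7% in siUSP9X and 54.8% in siCtrl, PRKACB 61.3% in siUSP9X and 45.2% in siCtrl, and the ratio of PRKACB to PRKACA 1.89 in siUSP9X and 0.831 in siCtrl.

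The labels do not say whether replicate numbers mark pairs. Deviations of same-numbered libraries correlated at -0.38 to 0.21. These values cannot exclude pairs, since large shifts of single libraries, such as siUSP9X library 2, enter them. With the replicate block 34 genes were higher and 57 lower over the table, 0 PKA genes were higher, and 2 pathway genes, CITED2 and BDNF, were higher and 0 lower. Low depth limits GLI2, at 3 to 29 counts a library.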
